A study of Mus musculus with 21 samples.

Results

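Mettl7a1, Mettl7a2, Mettl7a3 and D630023F18Rik, 4 of the 27179 genes in the count tables, were followed through mRNA sequencing of podocyte fractions from young and middle-aged mice. Mettl7a2 and D630023F18Rik were chosen by their measured values, since both stood out for a sharp rise in the mice given MCC950 over those given saline. Mettl7a1 and Mettl7a3 were added because they are the paralogs of Mettl7a2, and not for their own values. All mice were male, wildtype C57BL/6J. The 6 young mice were 4 months old and untreated. The 15 middle-aged mice were 19.5 months old, and from 18 months of age they had received 6 weeks of intraperitoneal injections, given 2 times a week, of saline (n = 7) or of MCC950 at 10 mg/kg (n = 8). MCC950 is a small-molecule inhibitor of NLRP3, the sensor of an inflammasome that activates caspase-1 and the release of interleukin-1β and interleukin-18. Each library came from 1 mouse, and podocytes were pulled from a digest of kidney cortex with magnetic beads and antibodies to nephrin, a protein of the podocyte slit diaphragm.

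The Mettl7a genes encode small membrane proteins of the endoplasmic reticulum and of lipid droplets that belong to the S-adenosylmethionine-dependent methyltransferases. Their human counterparts METTL7A and METTL7B methylate thiols, hydrogen sulfide among them. D630023F18Rik is a protein-coding gene named only by a clone number, and no function is given for it here.

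All 3 paralogs lie on the forward strand of chromosome 15 of the mouse genome GRCm38, in the order Mettl7a1 (Entrez 70152, 100304145-100330001), Mettl7a3 (Entrez 668178, 100334806-100348386) and Mettl7a2 (Entrez 393082, 100353200-100361819). D630023F18Rik (Entrez 98303) lies on the reverse strand of chromosome 1 (65105284-65123351). In GENCODE M21 the exons of Mettl7a2 and of Mettl7a3 form 2 blocks each, against 5 for Mettl7a1 and 9 for D630023F18Rik. A further gene, Methig1 (Entrez 554292), starts at the same base as Mettl7a2 and runs on to 100384435, past Higd1c (Entrez 380975), a gene of the hypoxia-inducible domain family. Its older name, Mettl7a2-Higd1c, describes a read-through of both, and it was singled out only after its values had been seen.

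The reading frames of the paralogs are so alike that reads from one can carry the sequence of another, which is why a stretch of each is shown. Bases 127 to 216 of the 735-base reading frame, counted from the A of the start codon and taken from the GENCODE M21 transcripts, are the window of 90 bases in which they differ the most, and capitals mark the positions at which the 3 are not all the same.
Mettl7a1: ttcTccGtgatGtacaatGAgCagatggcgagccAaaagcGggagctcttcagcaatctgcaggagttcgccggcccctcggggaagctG
Mettl7a2: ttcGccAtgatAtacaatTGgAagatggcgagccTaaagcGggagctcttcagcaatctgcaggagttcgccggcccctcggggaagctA
Mettl7a3: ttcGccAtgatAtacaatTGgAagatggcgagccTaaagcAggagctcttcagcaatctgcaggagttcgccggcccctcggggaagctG
In this window Mettl7a1 differs from Mettl7a2 at 8 bases and Mettl7a3 from Mettl7a2 at 2. Over the whole frame Mettl7a2 and Mettl7a3 differ at 7 of 735 bases, with a run of 261 bases without a difference. Mettl7a1 is 94.7% identical to Mettl7a2 and 94.3% to Mettl7a3, whereas Mettl7b, the family member on chromosome 10, is 66.6% identical to each of the 3 over the bases that align. Of all 100-base windows in the Mettl7a2 transcript, 29.2% occur without a mismatch in Mettl7a3, 24.1% in Methig1 and 8.05% in Mettl7a1. Conversely, 31.9% of the windows of Mettl7a3 but only 7.42% of those of Mettl7a1 occur in Mettl7a2. How reads that match several of these genes were counted is not given in the sources used here, so the split of reads among Mettl7a2, Mettl7a3 and Methig1 is uncertain. None of the windows of D630023F18Rik occurs in a Mettl7a gene, and 13.6% occur in Gm28845.

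The 250 bases before the RefSeq start sites of Mettl7a2 and D630023F18Rik (build GRCm38.p6) are shown because both genes differed in the same direction between the treatments. They are written 5′ to 3′ on the strand of the gene, with capitals where 1 of the 8 short motifs searched on both strands was found.
Mettl7a2, chr15:100352950-100353199, forward strand: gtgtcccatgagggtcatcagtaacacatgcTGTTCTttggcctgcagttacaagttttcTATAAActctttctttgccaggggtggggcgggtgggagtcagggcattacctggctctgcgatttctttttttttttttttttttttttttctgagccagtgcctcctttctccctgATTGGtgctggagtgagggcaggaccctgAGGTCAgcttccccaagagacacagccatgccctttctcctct
D630023F18Rik, chr1:65123215-65123464, reverse strand: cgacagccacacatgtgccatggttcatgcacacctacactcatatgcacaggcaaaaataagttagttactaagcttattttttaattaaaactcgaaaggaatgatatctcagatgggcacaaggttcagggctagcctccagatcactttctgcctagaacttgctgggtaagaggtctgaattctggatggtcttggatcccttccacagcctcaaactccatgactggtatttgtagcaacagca
Counted from the start site as 0, Mettl7a2 holds AGGTCA, a binding site of many nuclear receptors, from position -43. It also holds the reverse complement of CCAAT from position -72, TATAAA from position -190 and, from position -219, the reverse complement of AGAACA, a binding site of steroid receptors. These motifs are common, since 16.3% of the 32851 RefSeq promoter windows of 300 bases hold AGGTCA, 37.4% hold CCAAT, 13.6% hold TATAAA and 19% hold AGAACA on either strand. D630023F18Rik holds none of the 8 in its 300-base window. The other 4 were the E-box CACGTG (7.15% of windows), the short HNF1 site GTTAAT (7.1%), the HNF4 site CAAAGTCCA (0.475%) and the full HNF1 palindrome (0.0609%), and neither gene holds any of them. Mettl7a1 holds CCAAT alone, on the reverse strand from position -62, and its window is 72.3% identical to that of Mettl7a2 over the aligned bases.

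Levels are given as CPM, the counts of a gene per 1000000 counts of its library after TMM scaling. Library totals were 27375870 to 36827823 counts in the young group, 45772937 to 84876399 in the saline group and 35440472 to 58247271 in the MCC950 group. Genes of the mitochondrial genome took 51.5% to 80.4%, 63.0% to 79.2% and 49.9% to 63.7% of these, so the share was lower with MCC950, and the saline and MCC950 ranges overlapped only from 63.0% to 63.7%. All 13 podocyte markers passed the filter on low counts, but the median of nephrin (Nphs1) itself fell from 41.4 CPM in young to 6.48 in saline and was 11.7 in MCC950 libraries. Lrp2 (megalin), a marker of proximal tubule, was present at medians of 188, 159 and 328 CPM. In such bulk fractions a change in the number of cells of a type and a change in RNA per cell cannot be told apart.

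Mettl7a2 was measured at low levels that stepped up between the groups. In young libraries it ranged from 0.678 to 1.84 CPM with a median of 1.20, in saline libraries from 1.45 to 3.71 with a median of 2.00, and in MCC950 libraries from 4.89 to 11.7 with a median of 7.03. Every MCC950 library was above every saline and every young library, and 6 of the 7 saline libraries were above every young library. The levels rest on 21 to 74, 75 to 305 and 267 to 873 reads per library. The fitted difference between MCC950 and saline, which is the one the gene was chosen on and is given as a description, was 1.81 on the log2 scale (SE 0.23), a 3.50-fold difference. Between saline and young it was 0.84 (SE 0.26), or 1.80-fold.

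D630023F18Rik had a different course. It ranged from 2.88 to 5.56 CPM in young libraries (median 3.97), from 1.64 to 4.35 in saline libraries (median 2.62) and from 5.31 to 15.1 in MCC950 libraries (median 8.72). Every MCC950 library was above every saline library, and 7 of the 8 were above every young library, while 5 of the 7 saline libraries were below every young library. The fitted difference between MCC950 and saline was 1.81 (SE 0.23), a 3.50-fold difference like that of Mettl7a2, again as a description. Against young, saline libraries differed by -0.62 (SE 0.24) and MCC950 libraries by 1.19 (SE 0.24), where Mettl7a2 stood at 0.84 and 2.65 (SE 0.27). Both of these comparisons share their saline or MCC950 libraries with the one that chose the genes.

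**Figure D1:**
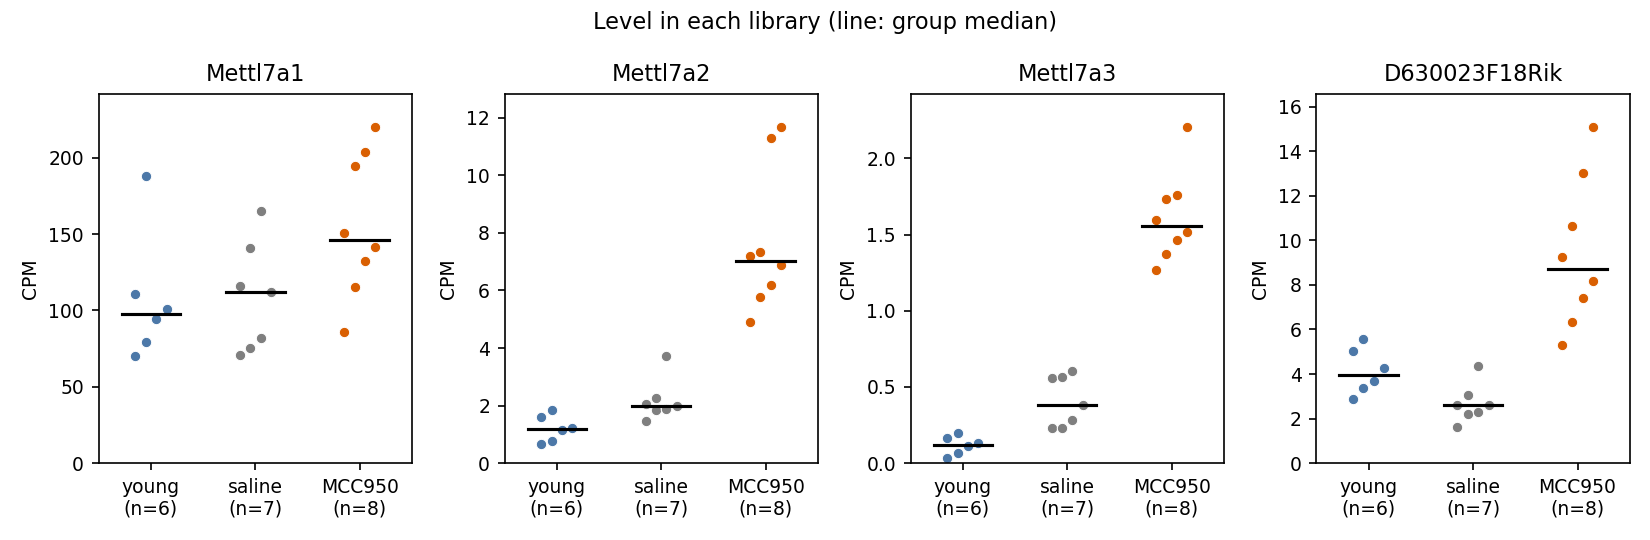
Level of each of the 4 genes in CPM (linear axis) in each of the 21 libraries, 1 point per library, with a black line at the group median. The MCC950 points of Mettl7a2, Mettl7a3 and D630023F18Rik all sit above the saline points, whereas the groups overlap for Mettl7a1, and the saline points of D630023F18Rik (median 2.62) sit low against the young ones (median 3.97).

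Mettl7a3, the near copy of Mettl7a2, followed the same steps at lower counts. Its levels ranged from 0.0364 to 0.199 CPM in young, from 0.228 to 0.604 in saline and from 1.27 to 2.20 in MCC950 libraries, with medians of 0.121, 0.379 and 1.56. The groups did not overlap in any of the 3 pairs, but the share of all genes that separate saline or MCC950 from young was not counted. The young values rest on only 1 to 8 reads per library and the saline values on 12 to 46. Mettl7a3 was higher in saline than in young libraries by 1.73 on the log2 scale (SE 0.34, edgeR quasi-likelihood test, adjusted p = 0.000869), where 12.2% of the 16377 genes tested were called higher and 12.4% lower. That p is not independent of the choice of genes. The saline libraries also served that choice, and the row shares sequence with Mettl7a2, which was chosen. Between MCC950 and saline Mettl7a3 differed by 1.97 (SE 0.24), with no p given because of the same shared sequence.

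Mettl7a1, by far the most abundant of the 3, moved little. It ranged from 70.3 to 188 CPM in young libraries (median 97.5), from 70.8 to 165 in saline libraries (median 112.2) and from 86.0 to 220 in MCC950 libraries (median 146), and 3 of the 8 MCC950 libraries were above every saline library. Neither difference passed the edgeR test, at 0.02 (SE 0.25, adjusted p = 0.959) between saline and young and at 0.52 (SE 0.23, adjusted p = 0.128) between MCC950 and saline, where 11.9% of all genes were called higher and 4.86% lower. An exact permutation test of the mean log2 CPM gave p = 0.0528 for the latter (two-sided, n = 8 and 7).

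The paralogs therefore did not move by the same factor. Mettl7a2 took 0.713% to 1.964% of the counts of the 3 rows in young, 1.58% to 2.66% in saline and 3.11% to 6.21% in MCC950 libraries, and Mettl7a3 took 0.0510% to 0.207%, 0.193% to 0.527% and 0.787% to 1.40%. The sum of the 3 rows, which does not depend on how shared reads were split among them, was mostly Mettl7a1 and had medians of 98.3, 114.6 and 153.8 CPM. The sum can still depend on whether multiply matching reads were counted and on reads shared with Methig1, whose treatment is not given. The ratio of Mettl7a2 to Mettl7a3 reads had medians of 10.2, 6.25 and 4.74. Levels per kilobase of GENCODE M21 exon allow for the lengths of the genes but not for reads shared between them. On this scale the medians of Mettl7a2 were 0.666, 1.11 and 3.90 CPM, those of D630023F18Rik 1.49, 0.981 and 3.27 and those of Mettl7a3 0.0731, 0.229 and 0.943. Mettl7a1 stood at 37.6, 43.2 and 56.3 and Mettl7b at 26.3, 25.9 and 39.7.

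Methig1 shared the pattern of Mettl7a2, with medians of 0.0484, 0.236 and 1.08 CPM and no overlap between the saline (0.0967 to 0.455) and the MCC950 libraries (0.633 to 2.46). Its fitted difference between MCC950 and saline was 2.23 (SE 0.37), a description for the same reason as that of Mettl7a3. Higd1c, the other gene within its span, was at 0 counts in all young and saline libraries and held 11 counts over the MCC950 libraries. Mettl7b was higher with MCC950 by 0.80 (SE 0.27, adjusted p = 0.0491) and differed by -0.06 (SE 0.29, adjusted p = 0.913) between saline and young.

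**Figure D2:**
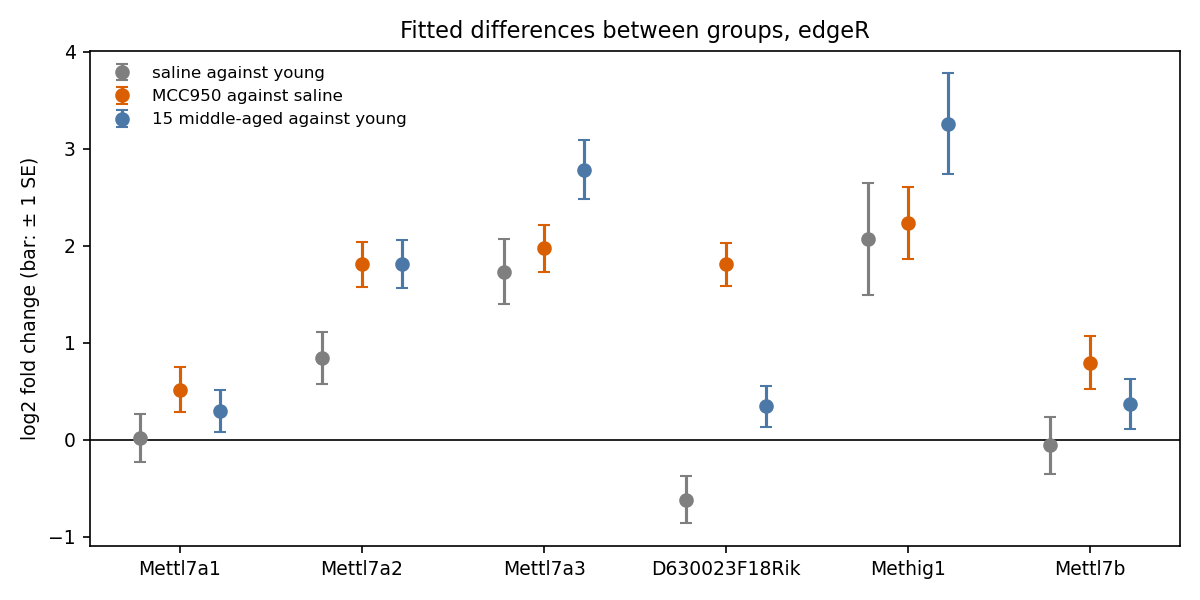
Fitted log2 fold changes (edgeR, 21 libraries in 1 model) of the 4 genes and of Methig1 and Mettl7b, with bars of 1 standard error, for saline against young, MCC950 against saline and all 15 middle-aged mice against the young. Mettl7a2 and D630023F18Rik are level at 1.81 for MCC950 against saline and lie on either side of 0, at 0.84 and -0.62, for saline against young.

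How rare such separation is was read from all genes. Every MCC950 library was above every saline library for 1.15% of the 16377 genes (189 genes), and above every saline and every young library for 0.305% (50 genes). Mettl7a2 and Mettl7a3 were in both sets and D630023F18Rik in the first. The second set lies within the first, and the first is a property on which Mettl7a2 and D630023F18Rik were in effect chosen. Neither membership is therefore evidence apart from that choice, and Mettl7a3 shares sequence with Mettl7a2.

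The 15 middle-aged mice were also set together, whatever their treatment, against the 6 young mice, with the groups weighted by size. This mean carries the difference on which Mettl7a2 and D630023F18Rik were chosen, and for Mettl7a3 that of a row with shared sequence, so the values of these 3 genes are descriptions with no p and are not differences of age alone. The difference was 1.81 on the log2 scale for Mettl7a2 (SE 0.25), and 14 of the 15 middle-aged libraries were above every young library. It was 2.79 for Mettl7a3 (SE 0.31), with all 15 above, and 0.35 for D630023F18Rik (SE 0.21), with 7 above and 5 below every young library. For Mettl7a1 it was 0.30 (SE 0.22, adjusted p = 0.301) and did not pass the test, nor did the exact permutation test of its mean log2 CPM (two-sided, n = 15 and 6, p = 0.222). In this contrast 17.8% of the genes were called higher and 16.1% lower. The share of all genes whose middle-aged libraries lie above every young library was not counted.

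Markers of several cell types also differed between the groups. Beside the counts of markers below, 12.2% of all genes tested were called higher and 12.4% lower between saline and young. Between MCC950 and saline these shares were 11.9% and 4.86%. The mean log2 CPM of 13 podocyte markers ranged from 4.81 to 5.99 in young, 2.81 to 4.08 in saline and 3.80 to 4.68 in MCC950 libraries, and 12 of the 13 were lower in saline than in young libraries. Between MCC950 and saline 5 of the 13 were higher, led by Nphs1 (1.18, SE 0.32, adjusted p = 0.0172) and Wt1 (1.03, SE 0.30, adjusted p = 0.0235). The 12 markers of the S1 and S2 segments of the proximal tubule ranged from 6.08 to 7.47, 5.60 to 7.19 and 6.58 to 7.68, and were higher by 0.95 in MCC950 than in saline libraries (exact permutation test, two-sided, p = 0.0028, adjusted over 11 lists p = 0.0188). Of these 8 rose and none fell, with Slc5a2, the glucose transporter of the early tubule, at 1.46 (SE 0.21, adjusted p = 0.000541) and Gatm, an enzyme of creatine synthesis, at 1.07 (SE 0.14, adjusted p = 0.000365). Of the 10 markers of the S3 segment 5 rose, and their mean was higher by 0.84 (exact permutation p = 0.00342, adjusted p = 0.0188). Between these groups no marker of T cells, of B and plasma cells or of macrophages and myeloid cells passed the test in either direction, while 2 of 6 markers of the thick ascending limb and distal tubule and 1 of 7 of endothelium were lower. Between saline and young, however, 3 of 8 macrophage and myeloid markers, 3 of 5 T cell markers and 3 of 6 B and plasma cell markers were higher, with scores higher by 1.03, 1.37 and 1.78 (exact permutation tests, adjusted p = 0.011, 0.00322 and 0.00513). In the same comparison 6 of 7 endothelial, 5 of 7 mesangial and smooth muscle and 4 of 6 collecting duct markers were lower, with score differences of -0.96, -1.02 and -0.61 (exact permutation tests, adjusted p = 0.00322, 0.00322 and 0.00642). The tubule scores differed little there, by -0.20 for S1 and S2 and -0.03 for S3 (exact permutation tests, adjusted p = 0.607 and 0.916). The podocyte, immune, endothelial, mesangial and collecting duct scores moved between saline and young, as did Mettl7a2 and Mettl7a3. Their part in the differences of both genes between saline and young was not tested.

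**Figure D3:**
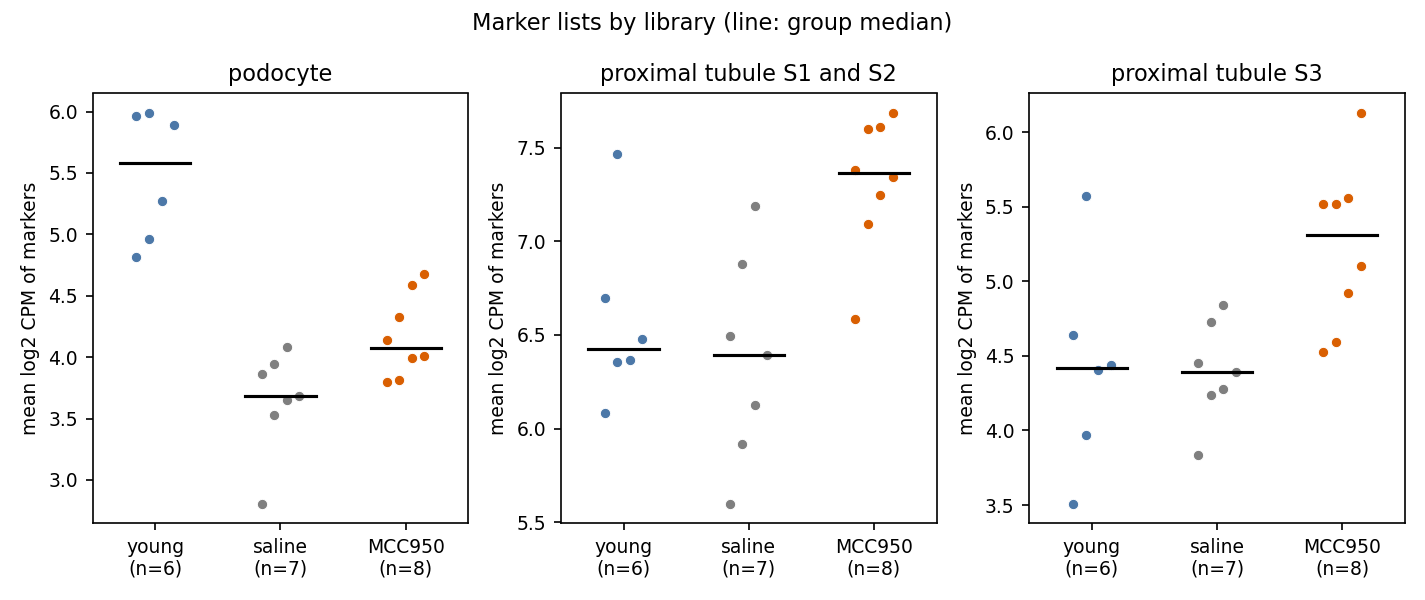
Mean log2 CPM of the podocyte markers and of the markers of both parts of the proximal tubule in each library, with a black line at the group median. Podocyte markers of young libraries (4.81 to 5.99) sit above those of all middle-aged libraries (2.81 to 4.68), and tubule markers are higher in most MCC950 than in most saline libraries.

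With the mean of the proximal tubule markers as a covariate, the differences between MCC950 and saline became 1.19 (SE 0.22) for Mettl7a2, 1.37 (SE 0.25) for Mettl7a3 and 1.46 (SE 0.27) for D630023F18Rik. Mettl7a1 turned its sign, to -0.33 (SE 0.11, adjusted p = 0.082). With the mean of the podocyte markers as a covariate, the differences between middle-aged and young mice were 0.52 (SE 0.31) for Mettl7a2 and 1.68 (SE 0.46) for Mettl7a3. Since the podocyte score did not overlap between young and middle-aged libraries, the score and the age group cannot be told apart. The differences between MCC950 and saline in that fit were 2.28 (SE 0.18) for Mettl7a2 and 1.97 (SE 0.25) for D630023F18Rik, while Mettl7a1 reached 0.85 (SE 0.24, adjusted p = 0.0137). In the same fit the difference of Mettl7a3 between saline and young no longer passed the test, at 0.40 (SE 0.53, adjusted p = 0.725). With every library thinned to 5804891 counts outside the mitochondrial genes, the MCC950 differences were 1.93 for Mettl7a2 and 1.71 for D630023F18Rik.

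Within the groups, that is, after the group mean was taken from each library, Mettl7a1 tracked the proximal tubule closely. Its log2 CPM correlated with the score of the S1 and S2 markers at r = 0.96 (Spearman rho 0.96, n = 21, permutation p = 1e-05 for each, the smallest the 100000 permutations can give, adjusted over 44 correlations p = 0.00044), and at 0.98 in young, 0.98 in saline and 0.96 in MCC950 libraries. Without the 2 libraries farthest from the median r was 0.94. Mettl7a1 also correlated at 0.81 with the S3 score and at -0.68 with the macrophage and myeloid score (adjusted permutation p = 0.0011 and 0.0132). Of the 12412 genes with an average of at least 1 log2 CPM, 5% correlated with Mettl7a1 at 0.84 or above. Mettl7a2 correlated with the S1 and S2 score at r = 0.66 (rho 0.64, adjusted permutation p = 0.0132) and with the podocyte score at r = -0.74 (rho -0.68, adjusted permutation p = 0.0132). The latter relation had r = -0.75, -0.97 and -0.50 in young, saline and MCC950 libraries. Without saline replicate 5 these correlations of Mettl7a2 were 0.58 (adjusted permutation p = 0.0627) and -0.66 (adjusted permutation p = 0.0671), and without young replicate 1 the first was 0.59 (adjusted permutation p = 0.0537). Mettl7a3 correlated at 0.65 with the S1 and S2 score, at 0.64 with the S3 score and at -0.62 with the podocyte score (adjusted permutation p = 0.0377, 0.0133 and 0.0422), calls that were lost without any 1 of 8, 3 and 10 libraries. It also correlated at -0.57 with the endothelial score (adjusted permutation p = 0.0398), whose dependence on single libraries is not given here. For D630023F18Rik none of the 11 marker scores passed after adjustment, and r was 0.47 with the S1 and S2 score (adjusted permutation p = 0.117) and -0.27 with the podocyte score (adjusted permutation p = 0.365).

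The correlation of Mettl7a2 with D630023F18Rik was modest. Over 21 libraries centred on their group means r was 0.45 (permutation p = 0.0461, adjusted over 6 pairs p = 0.0553) and rho 0.48 (permutation p = 0.0344, adjusted p = 0.0433), and r without the 2 farthest libraries was 0.55. It passed the adjusted threshold without saline replicate 5 (r = 0.57, adjusted permutation p = 0.0304), without MCC950 replicate 1 (0.55, 0.0219) or without MCC950 replicate 4 (0.50, 0.0372). In the groups r was 0.81 in young (exact permutation p = 0.0611, n = 6), 0.19 in saline (p = 0.619, n = 7) and 0.44 in MCC950 libraries (p = 0.269, n = 8). For comparison, 5% of the 12412 genes with an average of at least 1 log2 CPM correlated with Mettl7a2 at 0.64 or above and with D630023F18Rik at 0.56 or above, all measured in the same 21 libraries.

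**Figure D4:**
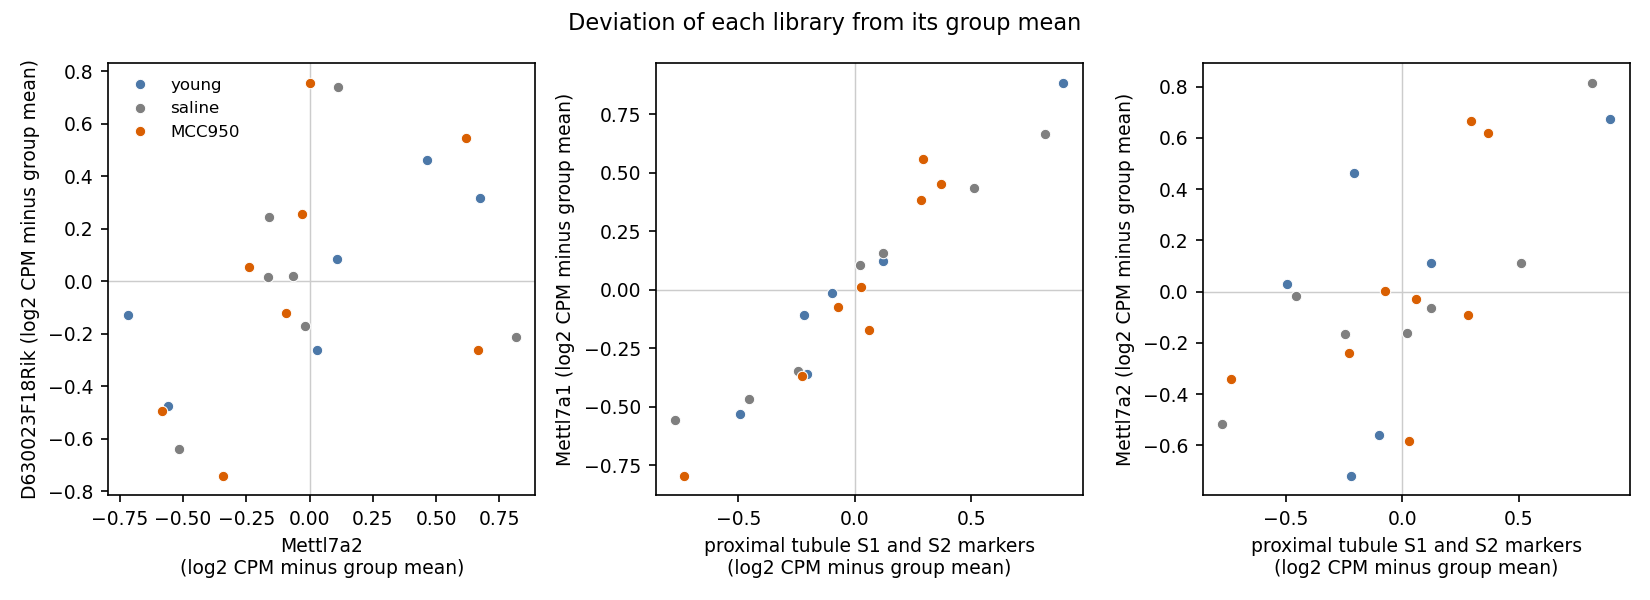
Deviation of each of the 21 libraries from its group mean in log2 CPM, for D630023F18Rik against Mettl7a2 (left), and for Mettl7a1 (middle) and Mettl7a2 (right) against the mean of the S1 and S2 proximal tubule markers. The points of Mettl7a1 lie close to a line (r = 0.96), those of Mettl7a2 are looser (r = 0.66) and those of the pair on the left are the loosest (r = 0.45).

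Among the paralogs the centred r was 0.61 for Mettl7a1 with Mettl7a2 and 0.62 for Mettl7a1 with Mettl7a3 (adjusted permutation p = 0.0178 for each). Both failed without young replicate 1, at 0.53 and 0.54 (adjusted permutation p = 0.0603 for each). For comparison, 5% of the same 12412 genes correlated with Mettl7a1, Mettl7a2 and Mettl7a3 at or above 0.84, 0.64 and 0.60. Mettl7a2 with Mettl7a3, rows that share sequence, had r = 0.53, and Mettl7a3 with D630023F18Rik had r = 0.46, each with an adjusted permutation p = 0.044 that was lost without any 1 of 11 libraries. Mettl7a1 with D630023F18Rik was at 0.38 (adjusted permutation p = 0.104). None of the 18 correlations inside single groups passed after adjustment, the lowest adjusted exact permutation p being 0.22, and 3 had an unadjusted p under 0.05.

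The 10 genes most like Mettl7a2 by centred r, from 0.88 down to 0.81, were Nsmce4a, a subunit of the SMC5/6 complex, Elp3, the catalytic subunit of Elongator, Tecr, Adss, Apmap, Cyp4f13, Mpst, a mitochondrial enzyme that makes hydrogen sulfide, Mrpl2, Gnpat, which starts the synthesis of ether lipids, and Iscu. Of these Apmap, Mpst, Gnpat and Iscu were higher with MCC950, by 0.24 (adjusted p = 0.0482) to 0.64 (adjusted p = 0.0137), where 11.9% of all genes were higher. Those most like D630023F18Rik, from 0.84 down to 0.76, were Ndufs4, a subunit of respiratory complex I, Mrps23, Nadsyn1, Kcp, Romo1, Uqcrb, Slc5a2, Mrpl13, Depdc1b and Eri3, and 8 of the 10 were higher with MCC950, by 0.30 (Mrpl13, adjusted p = 0.0295) to 1.46 (Slc5a2, adjusted p = 0.000541), again beside 11.9% of all genes. No gene was on both lists.

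Of the 3 nearest tested genes on either side of the Mettl7a rows, Slc11a2, an iron transporter, was higher with MCC950 by 0.49 (SE 0.11, adjusted p = 0.00843). Dip2b (-0.13, adjusted p = 0.545), Atf1 (-0.08, adjusted p = 0.495), 2310068J16Rik (0.84, adjusted p = 0.262) and Gm5475 (0.66, adjusted p = 0.232) did not pass, and the last of the 6 is Methig1. Beside D630023F18Rik, Idh1, the cytosolic NADP-dependent isocitrate dehydrogenase, was higher by 0.96 (SE 0.17, adjusted p = 0.00201). Cryga (1.09, adjusted p = 0.187), Gm8550 (0.58, adjusted p = 0.14), Plekhm3 (-0.27, adjusted p = 0.256), Pikfyve (0.05, adjusted p = 0.67) and Map2 (-0.45, adjusted p = 0.0934) did not pass.

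Genes of the pathways around the METTL7 enzymes were set beside them. These lists and those of the next paragraph were chosen with earlier results of these data known. Their counts are therefore descriptions and not independent support. Of 19 tested genes of the S-adenosylmethionine cycle and of small-molecule methyltransferases 8 were higher with MCC950 and none lower, beside 11.9% and 4.86% of all genes, with a median difference of 0.44 against 0.0028 for all genes. They included Ahcyl2 (0.66, SE 0.10, adjusted p = 0.000919), Ahcy, which breaks down S-adenosylhomocysteine (0.93, SE 0.20, adjusted p = 0.00628), and Gnmt (0.86, SE 0.22, adjusted p = 0.0133). Of 15 genes of hydrogen sulfide and thiol metabolism 9 were higher and none lower, beside the same shares of all genes, with a median of 0.65. Ethe1, a persulfide dioxygenase (0.99, SE 0.17, adjusted p = 0.00146), Cbs (1.17, SE 0.23, adjusted p = 0.00322) and Mpst (0.64, SE 0.16, adjusted p = 0.0137), both sources of hydrogen sulfide, and Selenbp1, which oxidises methanethiol (0.79, SE 0.20, adjusted p = 0.013), were among them. Between saline and young 1 gene of each list was lower and none higher.

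Of 19 lipid droplet genes 4 were higher with MCC950, Cideb (0.80, adjusted p = 0.012), Abhd5 (0.31, adjusted p = 0.0187), Aup1 (0.20, adjusted p = 0.0306) and Fitm1 (0.98, adjusted p = 0.0385), none was lower, and the median was 0.19, where 11.9% of all genes were higher. Between saline and young 4 of these lipid droplet genes were higher and 3 lower, beside 12.2% and 12.4% of all genes. Of 15 androgen-responsive genes of mouse kidney 4 were higher with MCC950 and none lower, beside the same 11.9%, with a median of 0.74, and 1 was higher and none lower between saline and young. Those higher with MCC950 were led by Cyp7b1, an oxysterol hydroxylase (1.54, SE 0.23, adjusted p = 0.000721), and Slc22a30 (0.95, SE 0.25, adjusted p = 0.0148). With the proximal tubule covariate the counts higher were 4, 0, 0 and 1 in the order of the lists above. In that fit 438 of the 16377 genes were higher, against 1957 in the main fit. Without saline replicate 3, 4 or 7 each of the first 2 lists held 5, and the first did so without saline replicate 6 too. The lipid droplet count was 1 without saline replicate 4 or 7 and 2 without saline replicate 3 or 6 or without MCC950 replicate 1, 4 or 5. Fewer of all genes were called higher in these fits too. They numbered 1149, 1008, 1297 and 1287 without saline replicate 3, 4, 6 and 7, and 1338, 1563 and 1367 without MCC950 replicate 1, 4 and 5.

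**Figure D5:**
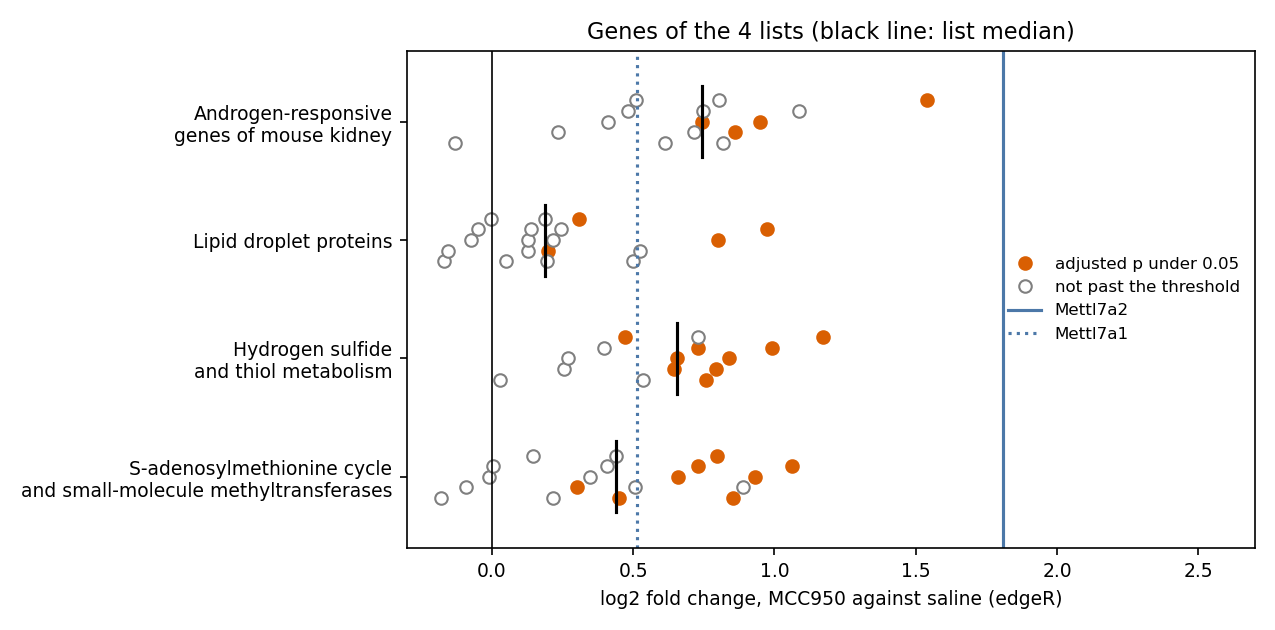
Fitted log2 fold change of MCC950 against saline for each tested gene of the 4 lists, filled where the adjusted p was under 0.05, with a black line at the list median and blue lines at Mettl7a2 (solid, 1.81) and Mettl7a1 (dotted, 0.52). Most genes of the lists lie above 0.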

How the data were processed

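mRNA of 21 podocyte fractions was sequenced from TruSeq libraries. The authors trimmed reads with Trim Galore, aligned them to mm10 (GRCm38) with Bowtie2 and deposited raw gene counts from featureCounts, as the study's methods and the submitters' processing notes say; versions, annotation and the treatment of multiply matching reads are not given in the sources used here. The authors also deposited a normalised table, whose signal values equal the counts divided by 1 factor per library for 20 libraries. The 27179 Entrez IDs were named from RefSeq (25275) or GENCODE M21 (18), and 1886 stayed unnamed.

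Counts were tested in 1 edgeR 4.0.16 quasi-likelihood model (TMM, filterByExpr, 16377 genes), with Benjamini-Hochberg adjustment over all genes and a threshold of 0.05. A prior count of 2 was added for log2 CPM. Correlations of centred values used 100000 permutations within groups, and fewer for the marker scores under the alternatives. Those inside single groups used exact permutation. Scripts were tested on simulated data. Alternatives were DESeq2 1.42.0, limma 3.58.1 on log2(normalised value + 1), other scaling and filters, covariates, thinning to 5804891 counts outside mitochondrial genes and each library left out. Genes named are the 4 members, Mettl7b and Higd1c, the 10 genes most like each of the chosen pair, the 3 neighbours on each side, Nphs1 and Lrp2, and up to 4 genes of each list by adjusted p, of which 1 is not reported here. The members and lists were chosen with earlier results of these data known.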

Additional observations from a re-analysis of the deposited data

Results flagged for a closer look

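In 12 sets of levels, 4 genes in 3 groups, 2 single libraries stood apart from the rest of their group by Dixon's test at the 95% level, which flags about 1 in 20 sets by chance. Mettl7a1 was at 188 CPM in young replicate 1, against 110.8 in the next library, and that library also had the highest tubule score of its group. Mettl7a2 was at 3.71 CPM in saline replicate 5, against 2.26 in the next. Without them the difference between middle-aged and young mice was 0.53 (without young replicate 1) for Mettl7a1 and 1.80 (without saline replicate 5) for Mettl7a2.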

How the results depend on the processing

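Of 905 values of 33 results recomputed under alternatives, 800 were counted as unchanged, 615 of them among the 693 with 1 library left out. For tested results this meant the same direction and the same side of the threshold. For the MCC950 differences of Mettl7a2 and D630023F18Rik it meant the same direction and a shift below the SD within groups. For the list counts it meant a count within a set ratio of the main one. The cause of the other changes was not tested. Mettl7a2 and D630023F18Rik kept positive differences between MCC950 and saline under every alternative run (1.19 to 2.28 and 1.46 to 1.97). Both genes were chosen on this difference in the same libraries, so the kept sign is not separate evidence. With the proximal tubule covariate, Mettl7a2 was at 1.19 and Mettl7a1 at -0.33 between MCC950 and saline, and Mettl7a1 at -0.016 between middle-aged and young. The list counts were then 4, 0, 0 and 1, beside 438 of all genes higher with MCC950. With the podocyte covariate, the differences between middle-aged and young were -0.56 for Mettl7a1, 0.52 for Mettl7a2, 1.68 for Mettl7a3 and -0.11 for D630023F18Rik, those between saline and young -1.01 for Mettl7a1 and 0.40 for Mettl7a3, and Mettl7a1 reached 0.85 between MCC950 and saline. With limma on the authors' normalised values, which also lack saline replicate 6, Mettl7a1 was at -0.012 between saline and young, the methyltransferase and lipid droplet counts were 5 and 1, r of Mettl7a2 with Mettl7a3 was 0.51 and that of Mettl7a3 with the podocyte score -0.60. Without saline replicate 6 alone those counts were 5 and 2. At equal depth they were 5 and 2 as well. With DESeq2 size factors r was 0.51 for Mettl7a2 with Mettl7a3 and 0.44 for Mettl7a3 with D630023F18Rik, and with a prior count of 0.5 the former was 0.50.

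Replicate numbers were not treated as pairs in the main fit. Same-numbered libraries deviated from their group means with r from -0.14 to 0.40 over the 3 pairs of groups. Differently numbered libraries were not compared, so this range cannot decide whether the numbers pair the libraries. With the replicate block, Mettl7a1 passed the threshold, at 0.57 (adjusted p = 0.00465) between MCC950 and saline and at 0.44 (adjusted p = 0.00806) between middle-aged and young. The androgen list then held 7 genes, beside 2381 of all genes higher with MCC950. A fit of only the groups compared gives no value for middle-aged against young.

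With 1 library left out, Mettl7a1 ranged from -0.11 to 0.26 between saline and young. The methyltransferase, hydrogen sulfide and lipid droplet counts ranged from 5 to 10, 5 to 10 and 1 to 5. Centred r ranged from 0.53 to 0.70 for Mettl7a1 with Mettl7a2, 0.54 to 0.71 for Mettl7a1 with Mettl7a3, 0.45 to 0.62 for Mettl7a2 with Mettl7a3, 0.39 to 0.57 for Mettl7a2 with D630023F18Rik and 0.38 to 0.56 for Mettl7a3 with D630023F18Rik, and from 0 to 1 of the 18 correlations inside groups passed. With the podocyte score r ranged from -0.59 to -0.38 for Mettl7a1, -0.78 to -0.66 for Mettl7a2 and -0.69 to -0.57 for Mettl7a3. With the S1 and S2 score it ranged from 0.58 to 0.72 for Mettl7a2 and 0.57 to 0.72 for Mettl7a3, and with the S3 score from 0.43 to 0.63 and 0.54 to 0.74.

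Genes higher and lower between MCC950 and saline numbered 1957 and 796, against 2172 and 1214 with DESeq2, 1116 and 504 on the authors' values, 1085 and 833 at equal depth, 438 and 355 with the tubule covariate, 2583 and 1219 with the podocyte covariate, and 1008 and 515 without saline replicate 4. Young counts of 1 to 8 reads limit the folds of Mettl7a3.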
